A study of Mus musculus with 30 samples.

Results

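Hematopoietic stem cells that lack Mettl3 were compared with the multipotent progenitors MPP4 that lack it, in mouse bone marrow. The comparison rests on 6 of the 30 samples of the series, 3 bulk RNA-seq libraries of each population. Genotype and sort gate, and no measured value, set which libraries belong to it. That this comparison was made, and which gene lists were read, was decided with earlier results of these data known. Both groups carried Mx1-Cre and Mettl3 fl/fl and are called Mettl3KO. HSC were sorted as Lin-;Sca1+;c-Kit+;CD150+;CD48- and MPP4 as Lin-;Sca1+;c-Kit+;CD150-;CD48+. The same populations from Mettl3 fl/fl mice without the Cre transgene, called WT here, gave 6 more libraries and show the step with Mettl3 present. All mice, WT included, had received pIpC, and cells were collected 3 weeks later. pIpC is a synthetic double-stranded RNA whose interferon response switches Mx1-Cre on, so deletion is not limited to blood cells. The labels give 3 mice per population and genotype, and do not say whether 1 mouse gave both populations. The other 12 bulk libraries (MPP1 and MPP2) entered the fit for the spread between replicates, and the 6 single-cell libraries were not used here.

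HSC sit at the top of the blood hierarchy, divide rarely and can rebuild all lineages. MPP4 is the progenitor stage biased to lymphoid fates, which carries the cytokine receptor Flt3 and divides far more. The gate given above did not select on Flt3, and what part of the sorted cells belongs to that stage was not tested. The enzyme Mettl3, working with its partner Mettl14 in the nucleus, methylates adenosines of messenger RNA to m6A, a mark that reader proteins use to steer splicing, decay and translation. The comparison asks which differences between stem cell and progenitor were present when that enzyme gene was deleted.

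The 6 libraries held 33012524 to 55276836 counts. Levels are given as CPM, counts scaled to a common TMM-adjusted library total, and a level of 0 in a library means that no read was counted there. Fold changes are log2 values of HSC over MPP4 with their SE, positive where HSC was higher. Each SE, also for differences between steps, was derived from the test named next. It is the absolute log2 value divided by the square root of the F statistic, and is approximate. A gene is called when its Benjamini-Hochberg adjusted p from edgeR's quasi-likelihood test was under 0.05. With 3 against 3 libraries an exact two-sided permutation test could not go below 0.1, so no such test was used for single genes. In bulk RNA, fewer cells of a type and less RNA per cell cannot be told apart.

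Mettl3 (chr14:52294841-52305128, minus strand, GRCm38) was at 14.4, 17.2 and 11.6 CPM in Mettl3KO HSC and 17.8, 17.6 and 22.4 CPM in Mettl3KO MPP4, against 36.6, 31.6 and 42.6 CPM in WT HSC and 32.7, 34.4 and 31.6 CPM in WT MPP4. Every Mettl3KO library lay below every WT library of its population. Between the Mettl3KO populations the log2 fold change was -0.42 ± 0.18 (adjusted p = 0.098, edgeR), with every HSC library below every MPP4 library. This difference passed with DESeq2 (adjusted p = 0.032) and with library quality weights (0.024). The labels do not name the deleted exons, so reads over the remaining exons may be counted in cells with the deletion.

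The gate was visible in the RNA. Slamf1, which encodes CD150, was at 50.2, 62.7 and 49.8 CPM in Mettl3KO HSC and 1.39, 3.83 and 1.28 CPM in Mettl3KO MPP4 (log2 fold change 4.64 ± 0.58, adjusted p = 7.7e-06). Cd48 went the other way, with 6.9, 11.3 and 13.5 CPM in Mettl3KO HSC and 246, 227 and 254 CPM in Mettl3KO MPP4 (log2 fold change -4.52 ± 0.38, adjusted p = 6.5e-08). Neither gene's libraries overlapped. Of the gate markers that both populations share, Ly6a, which encodes Sca1, was at 891, 1663 and 1779.6 CPM in Mettl3KO HSC and 1136, 1009 and 1122 CPM in Mettl3KO MPP4 (log2 fold change 0.41 ± 0.24, adjusted p = 0.23). Kit, the receptor for stem cell factor, was at 852, 253 and 412 CPM in Mettl3KO HSC and 212, 230.3 and 186 CPM in Mettl3KO MPP4 (log2 fold change 1.27 ± 0.47, adjusted p = 0.054), with 1 HSC library far above the others. The Kit difference passed without Mettl3KO HSC replicate 2 (0.026), and the Ly6a difference without HSC replicate 1 (0.043). Both genes are among those with only even counts in all 24 libraries, and how this bears on their counting error was not tested.

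The libraries of each group were alike but not equal. Log2 CPM correlated across genes at 0.937 to 0.959 within Mettl3KO HSC and at 0.955 to 0.960 within Mettl3KO MPP4. The 45S ribosomal RNA precursor Rn45s took 5.49% of the counts in HSC replicate 2 and 1.80% to 2.84% in the other 5. That library also held more RNA of neutrophil granule genes, for example S100a8 at 10.9, 325 and 4.7 CPM in the 3 HSC libraries. MPP4 replicate 2 was the highest in macrophage RNA, with C1qa at 67.6, 301 and 20.9 CPM in the 3 MPP4 libraries. On the first 2 principal components of the 12 HSC and MPP4 libraries, 42.8% and 13.6% of the variance, the first set HSC apart from MPP4 and the second Mettl3KO from WT.

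Of 15523 genes tested, 3907 (25.2%) differed between Mettl3KO HSC and Mettl3KO MPP4. HSC were higher for 2067 genes (13.3% of those tested) and lower for 1840 (11.9%). A difference of at least 2-fold was called higher for 1484 genes (9.56%) and lower for 1066 (6.87%). The 3 and 3 libraries did not overlap for 3373 genes with HSC higher (21.7%) and 3182 with HSC lower (20.5%). The median log2 fold change over all genes was 0.06. The count was 3087 without HSC replicate 2 and 2934 without MPP4 replicate 2. Gene lists are read against these shares below, and a gene at 0 in one population entered the test through the other.

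Transcription factors of stem cells were higher in Mettl3KO HSC. Of 24 such genes tested, 19 rose and 0 fell (all genes 13.3% and 11.9%), with a median of 2.48. Mycn, a MYC family member used by stem cells, was at 415, 304 and 338 CPM in Mettl3KO HSC and 21, 21.1 and 14.6 CPM in Mettl3KO MPP4 (log2 fold change 4.22 ± 0.31, adjusted p = 1.5e-08). Every HSC library lay far above every MPP4 library. Mllt3, which guards self-renewal, was at 325, 506 and 491 CPM in Mettl3KO HSC and 47.5, 32.6 and 44 CPM in Mettl3KO MPP4 (log2 fold change 3.41 ± 0.26, adjusted p = 2.6e-08). Mecom, a zinc finger factor needed for long-term stem cells, was at 88.1, 64.3 and 49.1 CPM in Mettl3KO HSC and 4.94, 4.46 and 3.47 CPM in Mettl3KO MPP4 (log2 fold change 3.97 ± 0.36, adjusted p = 2.1e-07). Prdm16, its relative, was at 264, 177 and 231 CPM in Mettl3KO HSC and 27.4, 34 and 32.3 CPM in Mettl3KO MPP4 (log2 fold change 2.84 ± 0.26, adjusted p = 2.2e-07). The 3 genes did not overlap between the populations. Among the remaining called members, Gata2 (3.02 ± 0.31, 9.8e-07), Meis1 (2.38 ± 0.35, 4.8e-05) and Hlf (1.98 ± 0.22, 1.9e-06), each given with its log2 fold change, SE and adjusted p, were chosen after their values were seen. The 5 members not called were Erg, Runx1, Rarb, Bcl6b and Egr1. Runx1, needed to form the first stem cells, was at 374, 369 and 398 CPM in Mettl3KO HSC and 373, 361 and 372 CPM in Mettl3KO MPP4 (log2 fold change 0.05 ± 0.14, adjusted p = 0.85).

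The stem cell surface showed the same split. In a list of surface and adhesion genes 19 of 24 rose, 0 fell, and the median was 2.97. Esam (chr9:37528078-37538319, plus strand), an adhesion molecule of stem cells, endothelium and platelets, was at 156, 185 and 167 CPM in Mettl3KO HSC and 7.13, 9.32 and 10.4 CPM in Mettl3KO MPP4 (log2 fold change 4.24 ± 0.28, adjusted p = 5.3e-09). Procr, the endothelial protein C receptor used to sort stem cells, was at 63, 84.7 and 82.6 CPM in Mettl3KO HSC and 10.0, 3.99 and 3.6 CPM in Mettl3KO MPP4 (log2 fold change 3.71 ± 0.31, adjusted p = 8.5e-08). Tie1, an endothelial-type receptor tyrosine kinase, was at 213, 136 and 155 CPM in Mettl3KO HSC and 16.5, 9.73 and 12.3 CPM in Mettl3KO MPP4 (log2 fold change 3.71 ± 0.32, adjusted p = 1.2e-07). Itga6, an integrin chain for laminin, was at 483, 359 and 402 CPM in Mettl3KO HSC and 109, 87.4 and 76.4 CPM in Mettl3KO MPP4 (log2 fold change 2.19 ± 0.20, adjusted p = 1.6e-07). None of these 4 genes overlapped between the populations. The defining endothelial gene Cdh5 was at 0, 0.03 and 0 CPM in Mettl3KO HSC and 0, 0.157 and 0.293 CPM in Mettl3KO MPP4. Of 9 endothelial markers tested, edgeR called 0, with 3 at an unadjusted p under 0.05, and DESeq2 called 1 lower.

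**Figure D1:**
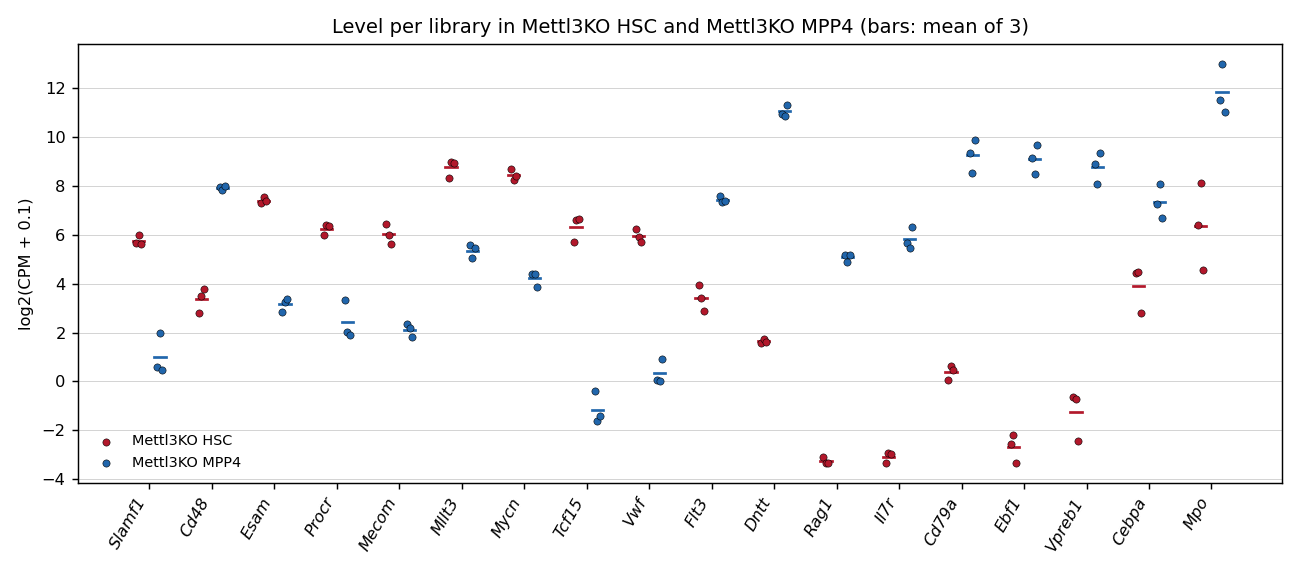
Level of 18 genes in each library, as log2(CPM + 0.1) on the vertical axis, with red points for the 3 Mettl3KO HSC libraries, blue points for the 3 Mettl3KO MPP4 libraries and a bar at the mean of the 3 log2 values. Stem cell and megakaryocyte genes from Esam to Vwf are higher in all 3 HSC libraries, and Flt3 to Mpo are lower in all 3, with Ebf1 between 0 and 0.12 CPM in HSC and between 362 and 826 CPM in MPP4.

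Megakaryocyte genes, which mark a platelet bias known in part of the stem cell pool, moved with them. Of 18 tested, 15 rose and 0 fell, with a median of 3.74. Gp5 and Gp9, subunits of the platelet receptor for von Willebrand factor, were at 132, 103 and 171 CPM in Mettl3KO HSC and 6.91, 3.77 and 9.32 CPM in Mettl3KO MPP4 and at 20.1, 25.4 and 39.1 CPM in Mettl3KO HSC and 2.99, 0.807 and 2.16 CPM in Mettl3KO MPP4. Their log2 fold changes were 4.35 ± 0.57 (adjusted p = 1.5e-05) and 3.83 ± 0.48 (adjusted p = 7.7e-06). Selp, the platelet adhesion molecule P-selectin, was at 378, 310.3 and 341 CPM in Mettl3KO HSC and 85, 58.8 and 56.5 CPM in Mettl3KO MPP4 (log2 fold change 2.36 ± 0.29, adjusted p = 7.7e-06). Vwf, the ligand of that platelet receptor, was at 76.4, 60.7 and 51.8 CPM in Mettl3KO HSC and 0.949, 0.919 and 1.8 CPM in Mettl3KO MPP4 (log2 fold change 5.68 ± 0.80, adjusted p = 3.1e-05), and was picked after its values were seen. These 4 genes were above the MPP4 range in every HSC library. Gp5 and Gp9 were not particular to HSC, since Mettl3KO MPP2 held 137.2 ± 51.5 and 21.2 ± 5.32 CPM (mean, SD). HSC held 135.6 ± 34.2 and 28.2 ± 9.82 CPM. Selp and Vwf were lower in MPP2 than in HSC. Selp was not particular to HSC either, since Mettl3KO MPP1 held 383.4 ± 176.7 CPM, against 343.1 ± 33.9 CPM in HSC (mean, SD).

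The erythroid list did not move one way. Of 21 genes 7 rose (33.3% against 13.3% over all genes) and 4 fell (19.0% against 11.9%), and the median was -0.73. The early regulators Tal1 (log2 fold change 2.66 ± 0.26, adjusted p = 5.0e-07) and Gfi1b (log2 fold change 2.57 ± 0.39, adjusted p = 6.9e-05) rose, as did the carbonic anhydrase Car2 (log2 fold change 1.65 ± 0.22, adjusted p = 1.3e-05). Tfrc, the transferrin receptor that loads dividing cells with iron, fell, with 22.8, 15.6 and 9.51 CPM in Mettl3KO HSC and 64.6, 114 and 89.8 CPM in Mettl3KO MPP4 (log2 fold change -2.48 ± 0.29, adjusted p = 3.6e-06). The other 3 that fell were Car1, Hba-a1 and Hba-a2, and the 2 globin copies had identical values, so they are 1 measurement. The number lower was 2 without HSC replicate 2, without HSC replicate 3 or without MPP4 replicate 2, and the number higher was 4 without MPP4 replicate 3.

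Genes of lymphoid priming were lower in Mettl3KO HSC. Of 20 tested, 14 fell and 2 rose, with a median of -1.68. Dntt (chr19:41029275-41059525, plus strand), the terminal transferase of antigen receptor assembly, was at 2.88, 3.27 and 2.95 CPM in Mettl3KO HSC and 1994, 1885 and 2569 CPM in Mettl3KO MPP4 (log2 fold change -9.47 ± 0.69, adjusted p = 1.5e-08). Rag1, a subunit of the recombinase that cuts antigen receptor genes, was at 0.0169, 0 and 0 CPM in Mettl3KO HSC and 36.3, 29.5 and 35.8 CPM in Mettl3KO MPP4 (log2 fold change -11.65 ± 0.96, adjusted p = 6.0e-08). Il7r, the interleukin 7 receptor, was at 0, 0.03 and 0.0278 CPM in Mettl3KO HSC and 51.2, 43.6 and 79.8 CPM in Mettl3KO MPP4 (log2 fold change -11.57 ± 0.95, adjusted p = 1.4e-07). The HSC libraries lay at or near 0 for Rag1 and Il7r. Flt3, whose ligand drives lymphoid and dendritic progenitors, was at 15.4, 10.5 and 7.2 CPM in Mettl3KO HSC and 191, 162 and 168 CPM in Mettl3KO MPP4 (log2 fold change -3.97 ± 0.46, adjusted p = 3.2e-06). The list was not uniform, since Ltb (log2 fold change 1.97 ± 0.33, adjusted p = 1.7e-04), a lymphotoxin chain, and Bcl11a (log2 fold change 0.97 ± 0.20, adjusted p = 0.0013), a transcription factor needed for B cell development, were the 2 members higher in HSC.

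B cell genes gave large differences. All 14 genes tested of a list of 15 fell in HSC, with a median of -9.15 (-9.01 with genes at 0 set to a floor of 3 counts over the group). Cd79a, a signalling chain of the B cell receptor, was at 0.93, 1.47 and 1.28 CPM in Mettl3KO HSC and 649, 368 and 949 CPM in Mettl3KO MPP4 (log2 fold change -9.07 ± 0.41, adjusted p = 2.0e-11). Blnk (chr19:40928927-40994535, minus strand), the adaptor behind that receptor, was at 0.321, 0.0601 and 0.361 CPM in Mettl3KO HSC and 235, 205 and 405 CPM in Mettl3KO MPP4 (log2 fold change -10.08 ± 0.53, adjusted p = 1.4e-10). Vpreb1, part of the surrogate light chain of the pre-B receptor, was at 0.541, 0.511 and 0.0834 CPM in Mettl3KO HSC and 477, 271 and 652 CPM in Mettl3KO MPP4 (log2 fold change -10.21 ± 0.65, adjusted p = 2.8e-09). Mzb1, a chaperone of immunoglobulin, was at 0.474, 0.18 and 0.834 CPM in Mettl3KO HSC and 242, 178 and 322 CPM in Mettl3KO MPP4 (log2 fold change -8.95 ± 0.55, adjusted p = 2.1e-09). Every HSC library stayed under 2 CPM for these 4 genes. Ebf1, the factor that commits cells to the B lineage, was at 0.0677, 0.12 and 0 CPM in Mettl3KO HSC and 558, 362 and 826 CPM in Mettl3KO MPP4 (log2 fold change -13.12 ± 1.36, adjusted p = 9.9e-07). Summed over the list, HSC held 35.9 to 44.6 CPM and MPP4 4855 to 6326 CPM, of which the plasma cell gene Igj gave 1354, 2197 and 610.4 CPM. The mature B cell gene Ms4a1 was at 0 in HSC and 4.87, 7.75 and 3.58 CPM in MPP4. The Lin- and c-Kit+ gates are meant to remove mature B and plasma cells, and what part of these sums came from such cells was not tested.

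T and NK cell genes were lower as well, at smaller levels. Of 14 tested, 10 fell and 0 rose, with a median of -7.24 (-5.74 at the floor). Lck, a kinase of T cell receptor signalling, was at 16.7, 17.8 and 24.4 CPM in Mettl3KO HSC and 98.7, 102 and 137 CPM in Mettl3KO MPP4 (log2 fold change -2.52 ± 0.38, adjusted p = 6.2e-05). Il2rb, a receptor chain for interleukins 2 and 15, was at 0, 0.21 and 0 CPM in Mettl3KO HSC and 25.2, 12.7 and 47.5 CPM in Mettl3KO MPP4 (log2 fold change -8.80 ± 1.64, adjusted p = 5.1e-04). Klrd1, a receptor of NK cells, was at 0 CPM in all 3 Mettl3KO HSC libraries and 5.67, 7.24 and 12.8 CPM in Mettl3KO MPP4, at least 370-fold lower in HSC against the floor. Cd2, an adhesion molecule of T and NK cells, was at 0 CPM in all 3 Mettl3KO HSC libraries and 3.43, 1.61 and 6.42 CPM in Mettl3KO MPP4, at least 164-fold lower. The list summed to 34.2 to 65.2 CPM in HSC and 392 to 478 CPM in MPP4, and the T cell defining gene Cd3e reached 0.73, 0.112 and 1.4 CPM in MPP4.

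Granulocyte and monocyte genes were lower in Mettl3KO HSC, and their spread was wide. Of 18 tested 12 fell and 0 rose, with a median of -3.67. Irf8, which directs monocyte and dendritic fates, was at 10.2, 11.9 and 10.1 CPM in Mettl3KO HSC and 318, 360.5 and 367 CPM in Mettl3KO MPP4 (log2 fold change -5.02 ± 0.41, adjusted p = 6.0e-08). Cebpa, the master factor of granulocytes, was at 21.7, 22.1 and 6.81 CPM in Mettl3KO HSC and 155, 269 and 104 CPM in Mettl3KO MPP4 (log2 fold change -3.38 ± 0.40, adjusted p = 4.7e-06). Mpo, the peroxidase of neutrophil granules, was at 83.3, 279 and 23.3 CPM in Mettl3KO HSC and 2961, 8152 and 2098 CPM in Mettl3KO MPP4 (log2 fold change -5.10 ± 1.17, adjusted p = 0.0031). Ly86, a partner of a Toll-like receptor, was at 0.305, 0.901 and 0.778 CPM in Mettl3KO HSC and 33.1, 48.8 and 35.6 CPM in Mettl3KO MPP4 (log2 fold change -5.91 ± 1.32, adjusted p = 0.0025). The same MPP4 library, replicate 2, was the highest for Mpo, Cebpa and Ly86. Without it 7 members fell and 1 rose.

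Macrophage markers moved in the same direction. Of 13 tested, 6 fell and 0 rose, and their sum was 86.4 to 115 CPM in HSC and 141 to 1408 CPM in MPP4. C1qa, a chain of complement C1q, was at 0.44, 2.76 and 0.445 CPM in Mettl3KO HSC and 67.6, 301 and 20.9 CPM in Mettl3KO MPP4 (log2 fold change -6.78 ± 1.90, adjusted p = 0.012). Marco, a scavenger receptor, was at 0 CPM in all 3 Mettl3KO HSC libraries and 3.21, 7.93 and 0.969 CPM in Mettl3KO MPP4, at least 174-fold lower in HSC. Emr1, which encodes F4/80, was at 0, 0.03 and 0 CPM in Mettl3KO HSC and 3.19, 6.9 and 1.06 CPM in Mettl3KO MPP4 (log2 fold change -8.38 ± 2.22, adjusted p = 0.0087). C1qc was at 0.44, 1.2 and 1 CPM in Mettl3KO HSC and 54.7, 227 and 14.3 CPM in Mettl3KO MPP4 (log2 fold change -6.84 ± 1.99, adjusted p = 0.015). The C1qa call was lost without Mettl3KO HSC 3, at an adjusted p of 0.056 and the C1qc call without Mettl3KO HSC 1, 2 or 3 or Mettl3KO MPP4 2, at an adjusted p between 0.05 and 0.058. The number lower was 3 without MPP4 replicate 2 and 2 without HSC replicate 3, and voom with quality weights called 1. The part of macrophage RNA in the granulocyte and monocyte result was not tested.

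Neutrophil genes did not separate the populations. Of 10 tested, 0 were called by edgeR, 0 passed at an unadjusted p under 0.05 and 0 were called by DESeq2. Their sum ranged from 34.4 to 2102 CPM in HSC and from 53.6 to 774 CPM in MPP4. The highest HSC library was replicate 2. Retnlg and Cxcr2, markers of later neutrophils, stayed at or under 9.43 CPM in all 6 libraries. Tpsb2, a tryptase of mast cells, was at 0 CPM in all 3 Mettl3KO HSC libraries and 124, 13.9 and 24.2 CPM in Mettl3KO MPP4, at least 2230-fold lower in HSC against the floor. Cma1, a chymase of mast cells, was at 0 CPM in all 3 Mettl3KO HSC libraries and 80.3, 15.2 and 16 CPM in Mettl3KO MPP4, at least 1540-fold lower. MPP4 replicate 1 held most of both.

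Genes of DNA replication and the G1/S transition were lower in Mettl3KO HSC by small amounts. Of 30 tested, 22 fell and 0 rose (all genes 11.9% and 13.3%), with a median of -0.95. Rrm1, a subunit of ribonucleotide reductase, was at 126, 68.4 and 92 CPM in Mettl3KO HSC and 246, 334 and 353 CPM in Mettl3KO MPP4 (log2 fold change -1.70 ± 0.21, adjusted p = 6.9e-06). Uhrf1, which maintains DNA methylation at replication, was at 466, 284 and 280.0 CPM in Mettl3KO HSC and 1012, 923 and 1040.2 CPM in Mettl3KO MPP4 (log2 fold change -1.53 ± 0.20, adjusted p = 1.6e-05). E2f2, a factor of the E2F family that switches these genes on, was at 8.9, 12.4 and 7.92 CPM in Mettl3KO HSC and 68.6, 73.1 and 112 CPM in Mettl3KO MPP4 (log2 fold change -3.12 ± 0.44, adjusted p = 3.1e-05). Slbp, which binds histone messenger RNA, was at 254, 273 and 282 CPM in Mettl3KO HSC and 569.7, 532 and 746 CPM in Mettl3KO MPP4 (log2 fold change -1.19 ± 0.18, adjusted p = 8.0e-05). In all 4 the populations did not overlap.

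Several of these genes carry a match to the E2F motif near their start, and the stretches below show where. RefSeq promoter windows (GRCm38.p6) from 250 bases before to 50 after the start were found for 24 of the 30 genes and searched for TTTGGCGC and TTTCCCGC on both strands. Of these 24 genes, 8 (33.3%) held a match, against 486 of 27025 genes (1.80%) with a window. It was 0 of 21 in the mitosis list and 2 of 19 (10.5%) among the stem cell transcription factors, of which 19 of 24 tested were higher in HSC and 0 lower. The 200 bases before the start of 3 matched genes are printed 5′ to 3′ on the strand of the gene, with the match in capitals. They were picked from the genes with a match and a call lower in HSC.
Mcm5: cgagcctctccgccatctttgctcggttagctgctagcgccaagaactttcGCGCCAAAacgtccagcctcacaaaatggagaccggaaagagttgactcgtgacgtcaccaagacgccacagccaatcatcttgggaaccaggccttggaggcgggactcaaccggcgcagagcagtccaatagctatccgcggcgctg
Mcm6: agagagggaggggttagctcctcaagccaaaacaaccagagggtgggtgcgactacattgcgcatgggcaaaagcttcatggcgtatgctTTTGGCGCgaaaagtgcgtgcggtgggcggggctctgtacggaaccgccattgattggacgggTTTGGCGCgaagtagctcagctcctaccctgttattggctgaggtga
Pola1: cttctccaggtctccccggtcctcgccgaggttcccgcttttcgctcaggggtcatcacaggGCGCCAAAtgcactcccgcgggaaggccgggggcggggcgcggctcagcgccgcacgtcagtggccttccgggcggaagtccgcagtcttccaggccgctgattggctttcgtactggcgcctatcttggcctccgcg
Mcm5 (chr8:75109309-75109508, plus strand) and Mcm6 (chr1:128359706-128359905, minus strand, 2 matches) encode subunits of the replicative helicase. Pola1 (chrX:93632156-93632355, minus strand) encodes the catalytic subunit of the polymerase that starts each strand. These 3 genes fell by 0.97 (Mcm5, adjusted p = 9.9e-05), 0.79 (Mcm6, 0.015) and 0.73 (Pola1, 0.0084) on the log2 scale. Mcm5 was at 202, 134 and 167 CPM in Mettl3KO HSC and 285, 348 and 356 CPM in Mettl3KO MPP4. A match is a description of these letters and no evidence of binding.

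Mitotic genes were lower as well. Of 25 tested, 19 fell and 0 rose, with a median of -1.42. Ccnb1, the mitotic cyclin, was at 53.3, 47.8 and 38 CPM in Mettl3KO HSC and 159, 147 and 200.3 CPM in Mettl3KO MPP4 (log2 fold change -1.86 ± 0.29, adjusted p = 9.8e-05). Kif23, a motor of cell division, was at 29.5, 19.3 and 25.7 CPM in Mettl3KO HSC and 82.6, 84.3 and 91.1 CPM in Mettl3KO MPP4 (log2 fold change -1.79 ± 0.31, adjusted p = 2.2e-04). Ect2, which sets the division plane, was at 55.3, 22 and 24.2 CPM in Mettl3KO HSC and 127, 199 and 233 CPM in Mettl3KO MPP4 (log2 fold change -2.46 ± 0.44, adjusted p = 3.6e-04). Ccna2, the cyclin of S phase and mitosis, was at 80.8, 61 and 60.8 CPM in Mettl3KO HSC and 259.5, 272 and 386 CPM in Mettl3KO MPP4 (log2 fold change -2.18 ± 0.40, adjusted p = 4.9e-04). HSC stayed below MPP4 in every library for all 4. Mki67, the usual proliferation marker, was at 151, 288 and 154 CPM in Mettl3KO HSC and 335, 245 and 285 CPM in Mettl3KO MPP4 and was not called (adjusted p = 0.27). HSC replicate 2 lay inside the MPP4 range.

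In a list of CDK inhibitors and quiescence genes 2 of 18 rose (11.1%, near the 13.3% over all genes) and 9 fell (50.0% against 11.9%). The list also holds the cyclin Ccnd3, which drives the cycle, so the 9 do not count CDK inhibitors alone. Cdkn1c, the inhibitor p57 that holds stem cells out of cycle, was at 55.5, 65 and 46.1 CPM in Mettl3KO HSC and 4.97, 5.74 and 10.6 CPM in Mettl3KO MPP4 (log2 fold change 2.97 ± 0.36, adjusted p = 5.4e-06). Txnip, a redox regulator of quiescent stem cells, was at 1030.4, 648 and 923 CPM in Mettl3KO HSC and 317, 272 and 392 CPM in Mettl3KO MPP4 (log2 fold change 1.41 ± 0.29, adjusted p = 0.0011). These were the members that rose. Ccnd3, a G1 cyclin, was at 645, 780.0 and 736 CPM in Mettl3KO HSC and 2376, 1638 and 3567 CPM in Mettl3KO MPP4 (log2 fold change -1.81 ± 0.33, adjusted p = 4.6e-04). Foxo1, a forkhead factor with roles in B cell development, was at 64.3, 54.2 and 48.6 CPM in Mettl3KO HSC and 143, 94.2 and 182 CPM in Mettl3KO MPP4 (log2 fold change -1.32 ± 0.34, adjusted p = 0.0076). The number lower was 3 without HSC replicate 1 and 5 without HSC replicates 2 or 3 or MPP4 replicate 3.

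Of 23 targets of p53, 6 were higher in HSC (26.1% against 13.3% over all genes) and 3 lower, a share near the 11.9% over all genes. Phlda3, an inhibitor of AKT signalling, was at 24.8, 28 and 32.4 CPM in Mettl3KO HSC and 11.4, 9.62 and 11.2 CPM in Mettl3KO MPP4 (log2 fold change 1.40 ± 0.32, adjusted p = 0.0031). Bbc3, the death gene PUMA, was at 32.7, 22.3 and 41.5 CPM in Mettl3KO HSC and 10.7, 16.1 and 10.6 CPM in Mettl3KO MPP4 (log2 fold change 1.37 ± 0.24, adjusted p = 3.5e-04). Gdf15, a stress cytokine, was at 11.9, 26.4 and 16.5 CPM in Mettl3KO HSC and 0.511, 3.68 and 0.743 CPM in Mettl3KO MPP4 (log2 fold change 3.47 ± 0.86, adjusted p = 0.0055). Pmaip1, the death gene NOXA, went the other way at 0.288, 0.781 and 0.306 CPM in Mettl3KO HSC and 5.28, 14 and 10.1 CPM in Mettl3KO MPP4 (log2 fold change -4.42 ± 1.12, adjusted p = 0.0064). Cdkn1a, the classic target p21, was lower in HSC (log2 fold change -1.07 ± 0.34, adjusted p = 0.025). The number lower was 1 without MPP4 replicate 3.

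Of 36 MYC targets and ribosome biogenesis genes, 6 fell and 0 rose, a share of 16.7% against 11.9% over all genes, and the median was -0.12. DESeq2 and voom each called 12 lower, and the fit of the compared libraries alone 3. Tfrc was the member with the largest change. Nop58, a core protein of small nucleolar particles, was at 112, 123 and 135 CPM in Mettl3KO HSC and 199, 186 and 199.6 CPM in Mettl3KO MPP4 (log2 fold change -0.66 ± 0.15, adjusted p = 0.0025). Eif4a1, a helicase of translation initiation, was at 443, 457 and 467 CPM in Mettl3KO HSC and 694, 724 and 676 CPM in Mettl3KO MPP4 (log2 fold change -0.62 ± 0.14, adjusted p = 0.0025). Bop1, a ribosome assembly factor, fell by 0.56 (adjusted p = 0.013), a call lost without Mettl3KO HSC 2 or Mettl3KO MPP4 2, at an adjusted p between 0.075 and 0.088. Of 83 ribosomal protein genes 1 was called, the muscle-type Rpl3l at 0.829, 0.24 and 0.0556 CPM in Mettl3KO HSC and 7.04, 7.73 and 9.21 CPM in Mettl3KO MPP4 (log2 fold change -4.38 ± 1.26, adjusted p = 0.014), a call lost without Mettl3KO HSC 2 or 3, at an adjusted p between 0.058 and 0.06. In the respiratory chain 14 of 40 fell (35.0% against 11.9% over all genes) and 0 rose, with a median of -0.64. Without HSC replicate 1 or without MPP4 replicate 3, 9 fell. DESeq2 called 23 lower and voom 25. Atp5b, a catalytic subunit of ATP synthase, was at 936, 890.1 and 984 CPM in Mettl3KO HSC and 1405, 1504 and 1509.6 CPM in Mettl3KO MPP4 (log2 fold change -0.65 ± 0.12, adjusted p = 5.4e-04). Sdhb, a subunit of complex II, was at 79, 129.6 and 136 CPM in Mettl3KO HSC and 269, 213 and 268 CPM in Mettl3KO MPP4 (log2 fold change -1.12 ± 0.24, adjusted p = 0.0015).

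Of 20 genes of the integrated stress and unfolded protein responses, 9 fell (45.0% against 11.9% over all genes), 2 rose (10.0% against 13.3%) and 9 were not called. Hsp90b1, the chaperone GRP94, was at 263, 208 and 263 CPM in Mettl3KO HSC and 521, 769.7 and 538 CPM in Mettl3KO MPP4 (log2 fold change -1.32 ± 0.18, adjusted p = 1.7e-05). Herpud1, a factor of protein degradation at the endoplasmic reticulum, was at 83.5, 95.7 and 94.8 CPM in Mettl3KO HSC and 135, 180.0 and 191 CPM in Mettl3KO MPP4 (log2 fold change -0.88 ± 0.18, adjusted p = 0.001). Edem1, a lectin of the same route, was at 23.6, 29.6 and 20.6 CPM in Mettl3KO HSC and 84.2, 139.9 and 68.9 CPM in Mettl3KO MPP4 (log2 fold change -1.99 ± 0.42, adjusted p = 0.0015), and Canx, the chaperone calnexin, at 774, 409 and 549 CPM in Mettl3KO HSC and 883, 1340.1 and 1159.5 CPM in Mettl3KO MPP4 (log2 fold change -0.97 ± 0.22, adjusted p = 0.003). The 2 that rose were Trib3 (log2 fold change 1.66 ± 0.51, adjusted p = 0.022) and Ppp1r15a (log2 fold change 1.80 ± 0.59, adjusted p = 0.029), both of the integrated stress arm. The number higher was 0 without HSC replicate 3 or MPP4 replicate 1 and 1 without HSC replicate 1 or MPP4 replicate 3. Igj (above) was highest in MPP4 replicate 2, the library that was also highest for Hsp90b1, Edem1 and Canx. Which cells gave the Igj RNA, and what part they had in these values, was not tested.

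Of 26 interferon-stimulated genes tested, 9 rose in HSC (34.6% against 13.3% over all genes) and 2 fell (7.69% against 11.9%). Ifit1, a sensor of foreign messenger RNA, was at 31.3, 29.4 and 31.3 CPM in Mettl3KO HSC and 7.28, 8.54 and 6.67 CPM in Mettl3KO MPP4 (log2 fold change 2.03 ± 0.30, adjusted p = 4.8e-05). Igtp, an interferon-induced GTPase, was at 132, 151 and 212 CPM in Mettl3KO HSC and 52.2, 54.1 and 53.1 CPM in Mettl3KO MPP4 (log2 fold change 1.64 ± 0.27, adjusted p = 1.6e-04). Rtp4, a chaperone of membrane receptors, was at 87.6, 175 and 142 CPM in Mettl3KO HSC and 45, 56.2 and 48.6 CPM in Mettl3KO MPP4 (log2 fold change 1.43 ± 0.25, adjusted p = 3.3e-04). Ifi27l2a went the other way at 1.15, 3.18 and 1.78 CPM in Mettl3KO HSC and 49.1, 47.3 and 43.6 CPM in Mettl3KO MPP4 (log2 fold change -4.52 ± 0.68, adjusted p = 6.6e-05). The other member that fell was Gbp3, and the number lower was 1 in each fit without HSC replicate 2 or 3 or any of the 3 MPP4 libraries. Usp18 and Irf7, which limit and amplify the response, were not called, with log2 fold changes of 0.08 ± 0.23 and -0.13 ± 0.30. A list for double-stranded RNA sensing also held Tlr7 and Tlr9, which bind other nucleic acids. Of its 11 genes, 2 rose and 2 fell, 18.2% each way, near the shares over all genes (13.3% and 11.9%). The 2 that rose were Eif2ak2 and Ddx58, and the 2 that fell were Tlr7 and Tlr9, so the split is not one among sensors of double-stranded RNA. Eif2ak2, the kinase PKR, was at 41.2, 59.8 and 45 CPM in Mettl3KO HSC and 27.9, 30.1 and 26.6 CPM in Mettl3KO MPP4 (log2 fold change 0.79 ± 0.21, adjusted p = 0.0092), a call lost without Mettl3KO HSC 2, at an adjusted p of 0.057. Ddx58, the sensor RIG-I, was at 48.1, 33.9 and 37.1 CPM in Mettl3KO HSC and 22.3, 28.5 and 18.8 CPM in Mettl3KO MPP4 (log2 fold change 0.77 ± 0.23, adjusted p = 0.019), a call lost without Mettl3KO HSC 1 or Mettl3KO MPP4 1 or 3, at an adjusted p between 0.059 and 0.1. Tlr7, a receptor for single-stranded RNA in endosomes, was at 0 CPM in all 3 Mettl3KO HSC libraries and 19.7, 31.6 and 39.9 CPM in Mettl3KO MPP4, at least 1310-fold lower in HSC. Tlr9, its relative for DNA, was at 0.0169, 0 and 0 CPM in Mettl3KO HSC and 0.438, 1.1 and 0.203 CPM in Mettl3KO MPP4, and its call was lost without Mettl3KO HSC 3, at an adjusted p of 0.052.

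Immediate early genes, which respond to handling within minutes, showed 2 of 18 higher in HSC (11.1%, near the 13.3% over all genes) and 0 lower. Nr4a2 was at 10.6, 13.4 and 22.7 CPM in Mettl3KO HSC and 5.5, 6.81 and 4.82 CPM in Mettl3KO MPP4 (log2 fold change 1.45 ± 0.48, adjusted p = 0.033) and Ier3 at 28.5, 67.9 and 59.3 CPM in Mettl3KO HSC and 19.1, 21.1 and 20.2 CPM in Mettl3KO MPP4 (log2 fold change 1.36 ± 0.46, adjusted p = 0.034). The Nr4a2 call was lost without Mettl3KO HSC 3 or Mettl3KO MPP4 1, 2 or 3, at an adjusted p between 0.058 and 0.16 and the Ier3 call without Mettl3KO HSC 2 or 3 or Mettl3KO MPP4 1, 2 or 3, at an adjusted p between 0.078 and 0.12. Fos was at 174, 699.9 and 409 CPM in Mettl3KO HSC and 144, 218 and 239 CPM in Mettl3KO MPP4, highest in HSC replicate 2.

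Of 9 genes of the m6A writer complex tested, 1 rose and 1 fell, 11.1% each way, near the shares over all genes (13.3% and 11.9%). Wtap, the subunit that anchors the writer in nuclear speckles, was at 29.9, 26.1 and 27.1 CPM in Mettl3KO HSC and 49.5, 72.2 and 83.2 CPM in Mettl3KO MPP4 (log2 fold change -1.30 ± 0.22, adjusted p = 2.3e-04). Rbm15, which guides the writer to its sites, was at 44.5, 29.9 and 27.7 CPM in Mettl3KO HSC and 18.3, 14.7 and 15.6 CPM in Mettl3KO MPP4 (log2 fold change 1.07 ± 0.26, adjusted p = 0.0043). Mettl14, the partner of Mettl3, was at 31.7, 19.9 and 27.9 CPM in Mettl3KO HSC and 20.6, 26 and 29.1 CPM in Mettl3KO MPP4 (log2 fold change 0.07 ± 0.21, adjusted p = 0.84). Of 12 readers and erasers, 2 rose (16.7%) and 4 fell (33.3%). Ythdc1, the nuclear reader, was at 128, 152 and 119 CPM in Mettl3KO HSC and 77.7, 54.9 and 59.2 CPM in Mettl3KO MPP4 (log2 fold change 1.06 ± 0.17, adjusted p = 1.3e-04). Ythdf2, the reader that promotes decay, was at 410.4, 238 and 321 CPM in Mettl3KO HSC and 182, 161 and 183 CPM in Mettl3KO MPP4 (log2 fold change 0.88 ± 0.27, adjusted p = 0.019), a call lost without Mettl3KO HSC 1 or Mettl3KO MPP4 2 or 3, at an adjusted p between 0.05 and 0.1. Hnrnpa2b1, a nuclear reader linked to splicing, was at 1971, 1629.8 and 1704 CPM in Mettl3KO HSC and 2771, 2792 and 3023 CPM in Mettl3KO MPP4 (log2 fold change -0.69 ± 0.11, adjusted p = 1.2e-04). Igf2bp3, a reader that stabilizes its targets, was at 1.57, 0.0901 and 0.667 CPM in Mettl3KO HSC and 12.1, 9.3 and 20.3 CPM in Mettl3KO MPP4 (log2 fold change -4.14 ± 0.97, adjusted p = 0.0035). Hnrnpc and Fmr1 were the other 2 that fell, and 2 members fell without HSC replicate 2 or 3 or MPP4 replicate 1 or 3. The erasers Fto (log2 fold change 0.35 ± 0.27, adjusted p = 0.36) and Alkbh5 (log2 fold change -0.28 ± 0.29, adjusted p = 0.51) were not called.

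Of 29 cytokine and chemokine receptors, 10 were lower in HSC (34.5% against 11.9% over all genes) and 5 higher (17.2%, near the 13.3% over all genes). Tnfrsf1a, a receptor of tumor necrosis factor, was higher at 173, 147 and 171 CPM in Mettl3KO HSC and 71.6, 96 and 52.6 CPM in Mettl3KO MPP4 (log2 fold change 1.16 ± 0.17, adjusted p = 4.8e-05). Tgfbr3, a co-receptor of transforming growth factor beta, was at 75.5, 57.6 and 44.7 CPM in Mettl3KO HSC and 3.8, 6.86 and 6.76 CPM in Mettl3KO MPP4 (log2 fold change 3.35 ± 0.49, adjusted p = 5.1e-05) and was picked after its values were seen. Besides Flt3 and Il7r, Ccr2, a chemokine receptor of monocytes, was lower at 0.643, 0.751 and 0.361 CPM in Mettl3KO HSC and 31.8, 52.4 and 36 CPM in Mettl3KO MPP4 (log2 fold change -6.09 ± 1.04, adjusted p = 2.2e-04), also picked after its values were seen. Without HSC replicate 3 the number lower was 6.

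**Figure D2:**
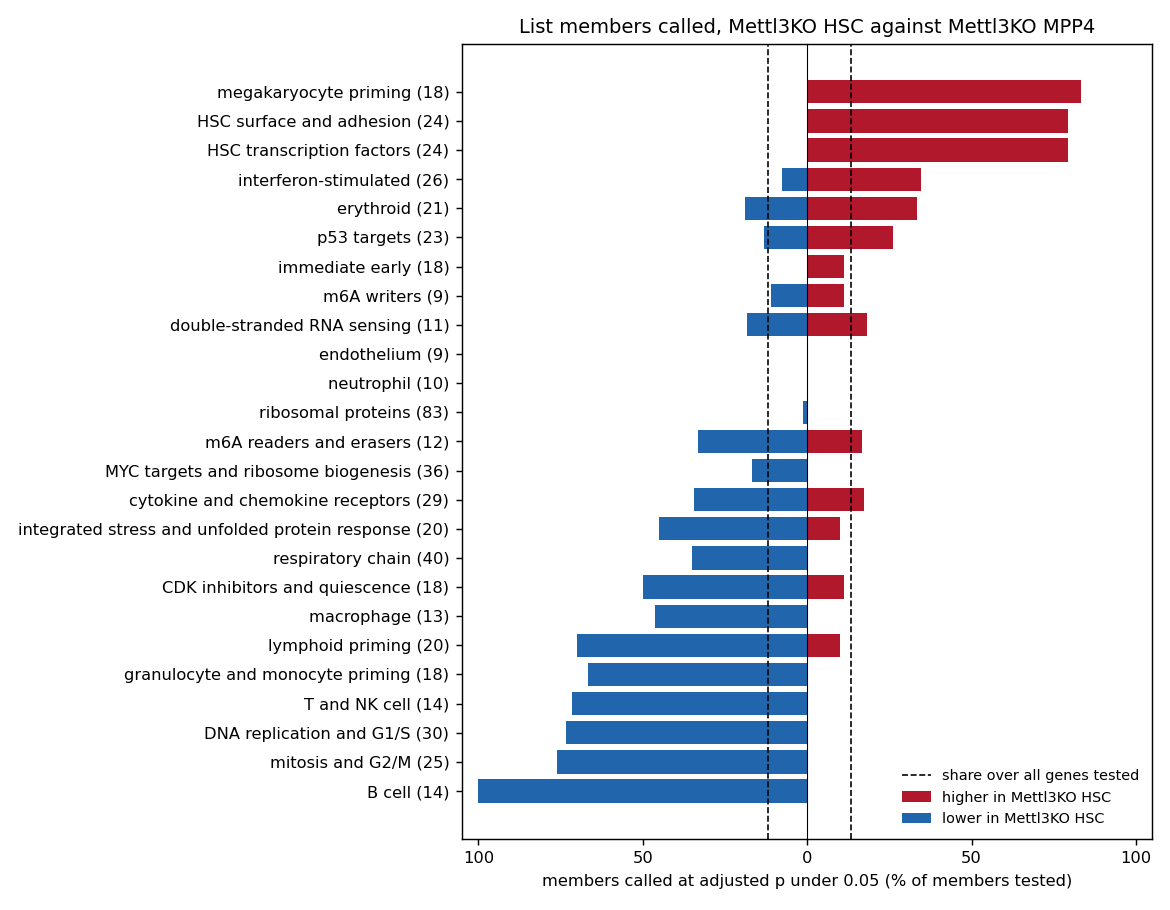
Share of the tested members of each gene list called at an adjusted p under 0.05 in Mettl3KO HSC against Mettl3KO MPP4, in percent on the horizontal axis, with red bars to the right for members higher in HSC and blue bars to the left for members lower, and the number tested after each name. Dashed lines mark the shares over all genes, 13.3% higher and 11.9% lower, which stem cell and megakaryocyte lists pass to the right and B cell, cell cycle, lymphoid and myeloid lists to the left.

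The largest increases among genes at 10 CPM or more that did not overlap included further stem cell genes. Tcf15 (chr2:152143561-152149097, plus strand), a basic helix-loop-helix factor of quiescent stem cells, was at 51.6, 96.1 and 99.9 CPM in Mettl3KO HSC and 0.657, 0.224 and 0.27 CPM in Mettl3KO MPP4 (log2 fold change 7.75 ± 0.63, adjusted p = 5.5e-08). Ghr, the growth hormone receptor, was at 14.7, 17.5 and 21.5 CPM in Mettl3KO HSC and 0.146, 0.0672 and 0 CPM in Mettl3KO MPP4 (log2 fold change 7.94 ± 1.16, adjusted p = 4.9e-05). Lhcgr, the receptor for luteinizing hormone, was at 17.5, 16.5 and 17.2 CPM in Mettl3KO HSC and 0.243, 0.0896 and 0.135 CPM in Mettl3KO MPP4 (log2 fold change 6.75 ± 0.61, adjusted p = 1.8e-07). Fhl1, a LIM domain protein, was at 73, 75.6 and 72.1 CPM in Mettl3KO HSC and 0, 2.08 and 0.0901 CPM in Mettl3KO MPP4 (log2 fold change 6.65 ± 0.94, adjusted p = 3.2e-05), and Aldh1a1, a retinaldehyde dehydrogenase, at 13.3, 17.9 and 10.1 CPM in Mettl3KO HSC and 0, 0 and 0.315 CPM in Mettl3KO MPP4 (log2 fold change 6.97 ± 0.92, adjusted p = 1.4e-05). Sox18, a factor of vessel formation, was at 9.61, 15 and 15.4 CPM in Mettl3KO HSC and 0.17, 0.0672 and 0.0901 CPM in Mettl3KO MPP4 (log2 fold change 6.90 ± 1.33, adjusted p = 7.1e-04). Dlg5, a scaffold of cell polarity, was at 15.4, 11.3 and 13.5 CPM in Mettl3KO HSC and 0 CPM in all 3 Mettl3KO MPP4 libraries, at least 598-fold higher. Mum1l1 was at 6.24, 16.2 and 9.03 CPM in Mettl3KO HSC and 0 CPM in all 3 Mettl3KO MPP4 libraries, at least 417-fold higher. Among the largest decreases beside those above, Fcrla, an Fc receptor-like protein of B cells, was at 0 CPM in all 3 Mettl3KO HSC libraries and 28.8, 28 and 20.7 CPM in Mettl3KO MPP4, at least 1100-fold lower. Scn4b, a sodium channel subunit, was at 0 CPM in all 3 Mettl3KO HSC libraries and 27.5, 28.6 and 48.4 CPM in Mettl3KO MPP4, at least 1500-fold lower. Klrc1, an NK cell receptor, was at 0 CPM in all 3 Mettl3KO HSC libraries and 12, 5.51 and 46 CPM in Mettl3KO MPP4, and Sh2d2a, an adaptor of T cells, at 0 CPM in all 3 Mettl3KO HSC libraries and 18.8, 6.9 and 16 CPM in Mettl3KO MPP4, at least 915-fold and 589-fold lower.

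By mean level, MPP1 and MPP2 of the same genotype placed Esam, Mecom, Procr, Vwf, Dntt and Flt3 between HSC and MPP4. Other genes lay outside that range, such as Mcm5 in MPP1 and Gp5 in MPP2, and no count over genes was made. Esam was at 169 ± 14.4 CPM (SD, n = 3) in HSC, 97.7 ± 29.2 in MPP1, 86.4 ± 16 in MPP2 and 8.94 ± 1.65 in MPP4. Mecom was at 67.2 ± 19.7, 53.6 ± 25.7, 17.8 ± 3.08 and 4.29 ± 0.751 CPM in the same order, so HSC and MPP1 lay within their spread and MPP4 was lowest. Procr showed the same order, from 76.8 ± 12 in HSC and 72.4 ± 7.15 in MPP1 to 21 ± 1.33 in MPP2 and 5.87 ± 3.59 CPM in MPP4. Vwf was second in MPP2, at 19.3 ± 3.13 CPM, against 9.46 ± 10.5 in MPP1, and these neighbours were within their spread. Dntt ran in the reverse order, from 3.03 ± 0.212 in HSC and 63.6 ± 38.6 in MPP1 to 256 ± 40.1 in MPP2 and 2149.5 ± 368 CPM in MPP4. Flt3 was at 11 ± 4.11, 70.2 ± 38.8, 56.9 ± 19.4 and 174 ± 15 CPM, and MPP1 and MPP2 did not differ beyond their spread. Mcm5 was at 168 ± 33.8 and 139.5 ± 22.2 CPM in HSC and MPP1, also within their spread, and higher in MPP2 (234 ± 28.7) and MPP4 (329.5 ± 38.6). These orders are a description, and no test was made between MPP1 or MPP2 and the other populations.

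**Figure D3:**
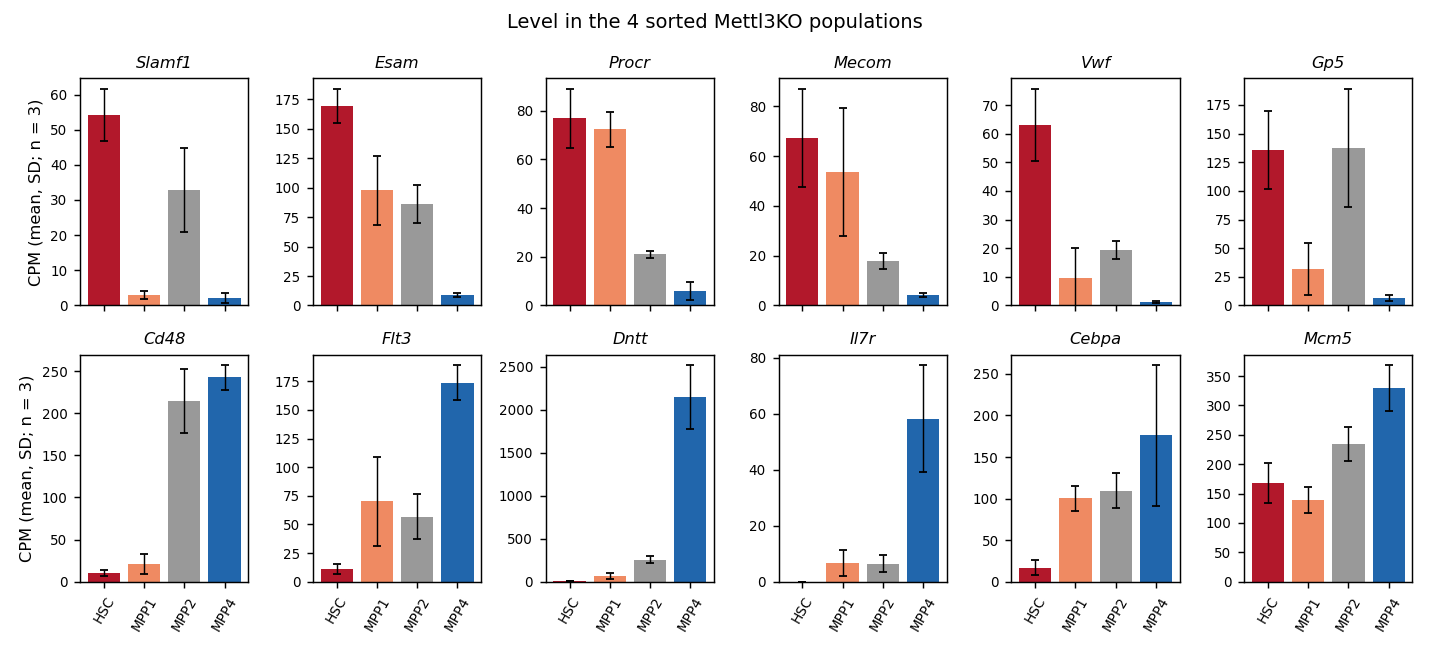
Level of 12 genes in the 4 sorted Mettl3KO populations, as mean CPM with SD over 3 libraries, each panel on its own linear axis from 0. Esam, Procr and Mecom fall from HSC to MPP4, while Flt3, Dntt and Il7r are highest in MPP4.

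The same step was measured in WT libraries, which share no library with the Mettl3KO step. There 1868 of 15523 genes (12.0%) differed between HSC and MPP4, 835 higher in HSC (5.38%) and 1033 lower (6.65%). Of the 3907 genes called in Mettl3KO, 1224 (31.3%) were called in the same direction in WT, which is 65.5% of the WT calls, and 12 were called in the opposite direction. Log2 fold changes of the steps correlated at 0.59 across all 15523 genes, which are not independent replicates. A gene called in 1 genotype alone is not thereby shown to differ. The test of the difference itself called 240 genes (1.55%), of which 146 (0.941%) had a higher HSC over MPP4 value in Mettl3KO and 94 (0.606%) a lower one. Of the 2671 genes called in Mettl3KO alone, 171 passed that test. The number of differences depended on single libraries. It was 770 without Mettl3KO HSC replicate 1, 104 and 76 without Mettl3KO HSC replicates 2 and 3, and 147 and 73 without Mettl3KO MPP4 replicates 2 and 3. Without WT HSC replicates 1 and 2 it was 115 and 126, and without WT MPP4 replicates 1, 2 and 3 it was 158, 112 and 74.

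**Figure D4:**
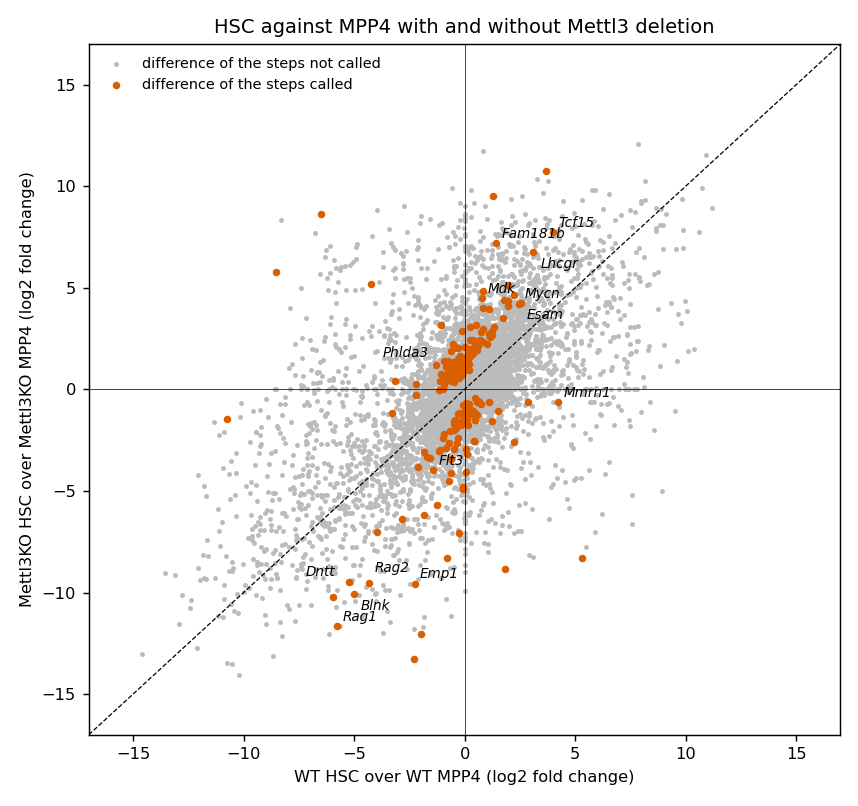
Log2 fold change of HSC over MPP4 in WT (horizontal) and in Mettl3KO (vertical) for 15523 genes, with the dashed line marking equal steps. Orange points are the 240 genes whose steps differed at an adjusted p under 0.05, among them Dntt, Rag2 and Blnk below the line and Tcf15, Mdk and Lhcgr above it.

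Lymphoid and B cell genes were among those with a lower step in Mettl3KO. Dntt was at 52.5, 27.5 and 7.46 CPM in WT HSC and 1528, 981 and 781 CPM in WT MPP4, a WT step of -5.23 ± 0.57, adjusted p = 7.2e-06, so the steps differed by -4.24 ± 0.71, adjusted p = 0.0045. Every Mettl3KO HSC library lay below every WT HSC library for Dntt, and every Mettl3KO MPP4 library above every WT MPP4 library. Blnk was at 2.9, 1.99 and 1.54 CPM in WT HSC and 101, 59.1 and 49.5 CPM in WT MPP4 (difference -5.06 ± 0.57, adjusted p = 2.9e-04). Rag2 was at 0.254, 0 and 0 CPM in Mettl3KO HSC and 74.1, 57.6 and 102 CPM in Mettl3KO MPP4, and at 0.486, 1.52 and 0.758 CPM in WT HSC and 29.9, 10.6 and 15.4 CPM in WT MPP4 (difference -5.19 ± 0.96, adjusted p = 0.0093). Vpreb1 was at 1.52, 0.551 and 1.16 CPM in WT HSC and 107, 53.8 and 39.2 CPM in WT MPP4 (difference -4.27 ± 0.69, adjusted p = 0.0044). Each of these 4 calls was kept in every fit that left out 1 library. Rag1 was at 0.175, 0.0423 and 0.0237 CPM in WT HSC and 6.9, 3.99 and 3.12 CPM in WT MPP4 (difference -5.87 ± 1.11, adjusted p = 0.011), a call lost without WT HSC 1, at an adjusted p of 0.096. In the lymphoid list 6 of 20 genes had a lower step and 0 a higher one, Dntt, Rag1, Rag2, Flt3 and Tcf3 among the former. Flt3 was at 169, 228 and 54.6 CPM in WT HSC and 399, 414 and 414 CPM in WT MPP4 (difference -2.53 ± 0.58, adjusted p = 0.032), a call lost without Mettl3KO HSC 2 or 3, Mettl3KO MPP4 2 or 3, WT HSC 1 or 2 or WT MPP4 1, 2 or 3, at an adjusted p between 0.055 and 0.1. Tcf3, the factor E2A of lymphoid commitment, differed by -1.52 ± 0.35, adjusted p = 0.029, lost without Mettl3KO HSC 2 or 3, Mettl3KO MPP4 3, WT HSC 1 or 2 or WT MPP4 2 or 3, at an adjusted p between 0.055 and 0.1. In the B cell list 3 of 14 had a lower step, Blnk, Vpreb1 and Cd79b, the last by -1.23 ± 0.31, adjusted p = 0.047 and lost without Mettl3KO HSC 2 or 3, Mettl3KO MPP4 1 or 3, WT HSC 1 or 3 or WT MPP4 2 or 3, at an adjusted p between 0.064 and 0.15.

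The stem cell lists gave few differences, all with a higher HSC over MPP4 value in Mettl3KO, which can come from either population. In the transcription factor list 2 of 24 passed, Nfix and Mycn. Nfix, which supports stem cell survival, was at 304, 491 and 433 CPM in Mettl3KO HSC and 144, 95.8 and 109 CPM in Mettl3KO MPP4, and at 309.9, 315 and 324 CPM in WT HSC and 251, 226 and 265 CPM in WT MPP4 (difference 1.46 ± 0.24, adjusted p = 0.0044), a call kept without any 1 library. Mycn was at 234, 172 and 191 CPM in WT HSC and 27.7, 29.3 and 51.1 CPM in WT MPP4 (difference 1.75 ± 0.38, adjusted p = 0.024), a call lost without Mettl3KO HSC 3, Mettl3KO MPP4 3, WT HSC 2 or 3 or WT MPP4 3, at an adjusted p between 0.05 and 0.092. Esam, the 1 of 24 surface genes that passed, was at 110.5, 87.7 and 127 CPM in WT HSC and 22.3, 16.8 and 15.8 CPM in WT MPP4 (difference 1.68 ± 0.36, adjusted p = 0.021), a call lost without Mettl3KO HSC 2 or 3, WT HSC 1 or 2 or WT MPP4 1, at an adjusted p between 0.051 and 0.065. Tcf15 was at 26.9, 20.2 and 46.8 CPM in WT HSC and 0.642, 3.2 and 1.93 CPM in WT MPP4 (difference 3.72 ± 0.71, adjusted p = 0.011). Lhcgr was at 22.6, 15.6 and 28.3 CPM in WT HSC and 1.55, 3.06 and 3.12 CPM in WT MPP4 (difference 3.65 ± 0.70, adjusted p = 0.012). For Lhcgr the MPP4 libraries of Mettl3KO lay below those of WT, and for Tcf15 the HSC libraries of Mettl3KO lay above those of WT. The Tcf15 difference also rests on low MPP4 levels, with means of 0.384 CPM in Mettl3KO and 1.92 CPM in WT. There the libraries of the genotypes overlapped. Phlda3 was at 7.42, 3.09 and 3.84 CPM in WT HSC and 11.2, 9.41 and 6.71 CPM in WT MPP4 (difference 2.33 ± 0.45, adjusted p = 0.013), with HSC above MPP4 in every Mettl3KO library and overlap between the WT populations. Those 3 calls were kept without any 1 library. Mmrn1, a platelet adhesive protein, was at 43.7, 21.4 and 3.67 CPM in Mettl3KO HSC and 36.8, 30.1 and 40.0 CPM in Mettl3KO MPP4, without separation, and at 167, 269 and 269 CPM in WT HSC and 12.7, 11.2 and 13.5 CPM in WT MPP4 (difference -4.87 ± 0.80, adjusted p = 0.0044), and its counts were all even.

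Other lists held few differences or none. Among replication genes Rrm1 differed by -1.24 ± 0.29, adjusted p = 0.035, a call lost without Mettl3KO HSC 2 or 3, Mettl3KO MPP4 2 or 3, WT HSC 1 or 2 or WT MPP4 1, 2 or 3, at an adjusted p between 0.062 and 0.12. Among interferon-stimulated genes Rtp4 differed by 1.44 ± 0.35, adjusted p = 0.044, a call lost without Mettl3KO HSC 2 or 3, Mettl3KO MPP4 1, 2 or 3, WT HSC 1, 2 or 3 or WT MPP4 1, 2 or 3, at an adjusted p between 0.057 and 0.14. Among m6A writers Wtap differed by -1.24 ± 0.31, adjusted p = 0.049, a call lost without Mettl3KO HSC 2 or 3, Mettl3KO MPP4 2 or 3, WT HSC 1 or 3 or WT MPP4 1, 2 or 3, at an adjusted p between 0.064 and 0.16. Of the receptors, Il2rg, the common chain of several interleukin receptors, differed by 1.05 ± 0.24, adjusted p = 0.033, a call lost without Mettl3KO HSC 2 or 3, Mettl3KO MPP4 1, 2 or 3, WT HSC 1, 2 or 3 or WT MPP4 2 or 3, at an adjusted p between 0.055 and 0.11. Tnfrsf1a passed at the edge of the threshold (0.93 ± 0.24, adjusted p = 0.05), a call lost without Mettl3KO HSC 2 or 3, Mettl3KO MPP4 1 or 3, WT HSC 1, 2 or 3 or WT MPP4 1, 2 or 3, at an adjusted p between 0.066 and 0.14. Thy1, listed with T cells and also found on stem cells, was at 2.47, 5.32 and 6.64 CPM in Mettl3KO HSC and 4.31, 1.79 and 4.82 CPM in Mettl3KO MPP4, and at 0.525, 0.275 and 0.379 CPM in WT HSC and 3.34, 3.34 and 3.95 CPM in WT MPP4. It differed by 3.56 ± 0.77, adjusted p = 0.023, a call lost without Mettl3KO HSC 2 or 3, Mettl3KO MPP4 2 or 3, WT HSC 2 or WT MPP4 3, at an adjusted p between 0.055 and 0.08. edgeR called 0 differences in the granulocyte and monocyte (3 at an unadjusted p under 0.05, 1 by DESeq2), megakaryocyte (3 and 1), erythroid (6 and 2), macrophage (2 and 1), mitotic (2 and 0) and respiratory chain lists (4 and 1). Voom with quality weights called 6 lower steps in the mitotic list. A missing call does not show equal steps.

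**Figure D5:**
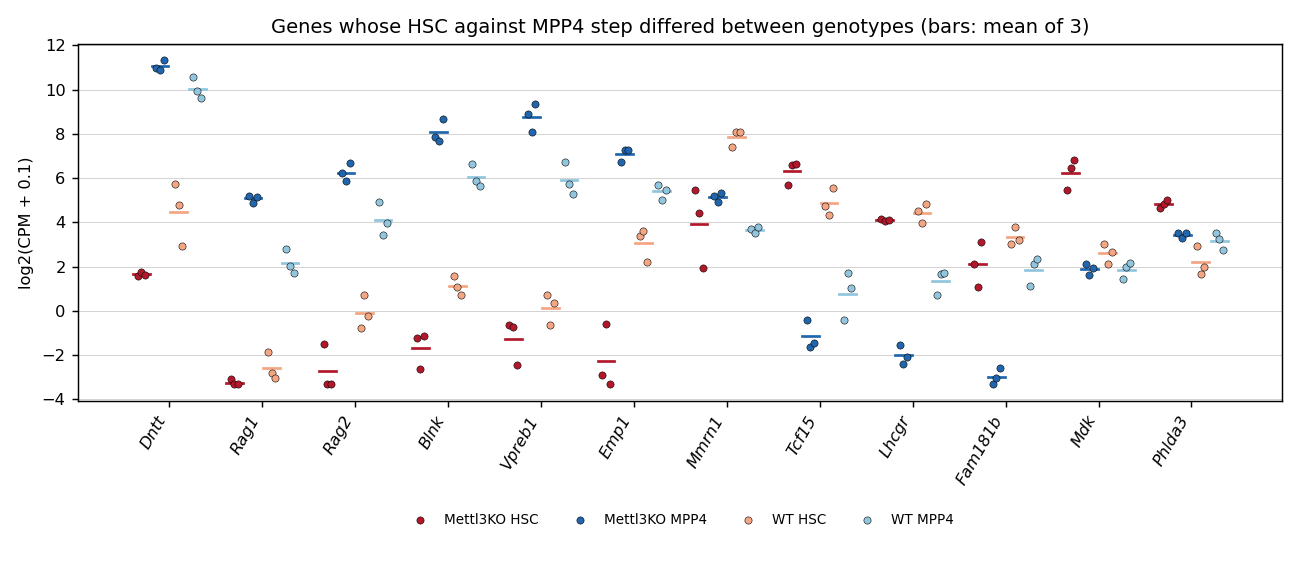
Level of 12 genes in each library of the 4 groups, as log2(CPM + 0.1), with a bar at the mean of the 3 log2 values. Dntt, Rag2, Blnk and Vpreb1 lie lower in Mettl3KO HSC than in WT HSC and higher in Mettl3KO MPP4 than in WT MPP4, and Lhcgr lies lowest in Mettl3KO MPP4.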

How the data were processed

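Bulk RNA of sorted bone marrow populations was sequenced in 24 libraries, 3 for each of 4 populations and 2 genotypes. The deposited table, although named for FPKM, holds whole-number read counts per gene, as its values show. The submitters' processing notes name Bowtie, TopHat, mm10 and GRCh37 without roles, and the counting tool is not given in the sources used here. Of 24063 gene rows, 27 named as dates were left out. Of 11720 genes with a mean above 100 counts, 166 had only even counts in all libraries, Kit, Ly6a, Prdm16, Uhrf1, Mmrn1 and Xbp1 among them.

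Counts were fitted with edgeR 4.0.16 in R 4.3.3 (TMM scaling, filterByExpr, 8 group means, quasi-likelihood test, Benjamini-Hochberg adjustment over 15523 genes). All 24 libraries, with 28896498 to 55276836 counts each, share 1 estimate of spread. DESeq2 1.42.0, limma 3.58.1 and the other alternatives are in the closing section. On simulated data with 14912 genes, the Mettl3KO comparison recovered 16 of 100 genes changed 2-fold and 72 of 100 changed 4-fold, with 4 false among 92 calls. Only these genes were changed there, against 3907 called in the data, so the shares do not carry over to the real comparison. Replicates are separate mice per the labels.

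Genes were named by rule: Mettl3, the gate genes, up to 4 called members of each list with the smallest adjusted p, and the 8 largest called changes in each direction at a mean of 10 CPM or more, for the step (in the higher group, without overlap) and for its difference (in at least 1 of the 4 groups). Genes given outside that rule, beyond those marked as chosen after their values were seen, are list members cited as markers or controls, also chosen with their values known. The comparison and the gene lists were chosen with earlier results of these data known. Gene positions are from GENCODE vM21 (GRCm38), and promoter sequences from RefSeq. Same-numbered libraries of the 2 populations did not deviate together in Mettl3KO, so the numbers were not used as pairs. Some genes that the rule names are not reported here.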

Additional observations from a re-analysis of the deposited data

Results flagged for a closer look

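For 16 genes the step from MPP4 to HSC differed between Mettl3KO and WT by edgeR's interaction test and was among the 8 largest such differences in its direction for genes with a mean of 10 CPM or more in at least 1 of the 4 groups. Lower in Mettl3KO (log2 difference) were Tlr7 (-10.96), Gcsam (-10.07), Fcrl1 (-9.51), Emp1 (-7.30), Rag1 (-5.87), Rag2 (-5.19), Blnk (-5.06) and Mmrn1 (-4.87). The fitted values of Tlr7, Gcsam and Fcrl1 are not bounds, since no read was counted in Mettl3KO HSC. With 3 counts per group as the floor, Gcsam was at least 556-fold and Fcrl1 at least 480-fold lower in Mettl3KO HSC than in Mettl3KO MPP4. Emp1, a membrane protein, was at 0.0338, 0.571 and 0 CPM in Mettl3KO HSC and 105, 153 and 154 CPM in Mettl3KO MPP4, and at 10.3, 12 and 4.57 CPM in WT HSC and 52.1, 32 and 44.3 CPM in WT MPP4. Higher were Fam181b (5.76), Tcf15 (3.72), Mdk (3.69), Lhcgr (3.65), Grrp1 (3.16), Leprel4 (3.15), Arap3 (3.00) and Bdh2 (2.87). Mdk, the growth factor midkine, was at 44.1, 87.2 and 111 CPM in Mettl3KO HSC and 4.28, 2.94 and 3.67 CPM in Mettl3KO MPP4, and at 7.97, 4.3 and 6.3 CPM in WT HSC and 2.59, 3.83 and 4.35 CPM in WT MPP4. Fam181b was at 4.23, 1.98 and 8.56 CPM in Mettl3KO HSC and 0, 0.0224 and 0.0676 CPM in Mettl3KO MPP4, and at 8.03, 13.7 and 8.98 CPM in WT HSC and 2.08, 4.27 and 4.95 CPM in WT MPP4.

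The calls of Blnk, Gcsam, Emp1, Rag2, Mmrn1, Tcf15, Lhcgr, Fam181b and Mdk were kept in each fit that left out 1 library. That of Tlr7 was lost without Mettl3KO HSC 1, 2 or 3, Mettl3KO MPP4 2 or 3, WT HSC 1 or 2 or WT MPP4 1, 2 or 3, at an adjusted p between 0.052 and 0.13, and that of Fcrl1 without Mettl3KO HSC 1, 2 or 3, Mettl3KO MPP4 1, 2 or 3, WT HSC 1 or 2 or WT MPP4 1, 2 or 3, at an adjusted p between 0.055 and 0.13. That of Grrp1 was lost without Mettl3KO HSC 2 or 3, Mettl3KO MPP4 2 or 3, WT HSC 2 or 3 or WT MPP4 1 or 3, at an adjusted p between 0.071 and 0.1, and that of Leprel4 without Mettl3KO HSC 2 or 3, Mettl3KO MPP4 1 or 2, WT HSC 1 or 2 or WT MPP4 1 or 3, at an adjusted p between 0.052 and 0.081. That of Arap3 was lost without Mettl3KO HSC 2 or 3, Mettl3KO MPP4 3, WT HSC 1 or WT MPP4 2 or 3, at an adjusted p between 0.052 and 0.081, and that of Bdh2 without Mettl3KO HSC 2 or 3, Mettl3KO MPP4 2 or 3, WT HSC 1, 2 or 3 or WT MPP4 1, 2 or 3, at an adjusted p between 0.066 and 0.14.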

How the results depend on the processing

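The 3907 genes called between Mettl3KO HSC and Mettl3KO MPP4 ranged from 2628 to 3556 when 1 library was left out, and from 3466 to 5850 under the other alternatives except the replicate block (2260). The 240 differences between the genotypes' steps were less stable, with 812 by DESeq2, 1358 by voom with quality weights, 144 with the compared libraries alone, 11 with the replicate block, and 73 to 770 without 1 library. The WT step (1868) gave 2872 by DESeq2, 3924 by voom, 3582 with the replicate block and 680 to 1353 without 1 library. The causes were not tested. For the block, same-numbered HSC and MPP4 libraries correlated at -0.09, 0 and 0.02 in Mettl3KO and at 0.14, 0.09 and 0.1 in WT. Every WT library correlated best with its own number and the Mettl3KO libraries did not, a hint from the data and not from the design. Under the block 1 difference was higher (9.1%) and 10 lower, against 60.8% higher without it, and of the genes named here Dntt, Blnk, Gcsam, Emp1 and Arap3 passed. No named gene reversed. Of the named genes' values under alternatives, 1523 kept their call for the Mettl3KO step, 41 lost it and 12 gained it, and for the difference 440 kept and 200 lost it. The simulation recovered 16 of 100 2-fold changes, but with far fewer changed genes than were called here. What share of small changes was missed in the data is therefore not known.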
